A study of Homo sapiens with 12 samples.

Results

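The 7 cholesterol synthesis enzymes HMGCS1, IDI1, FDPS, FDFT1, SQLE, LSS and DHCR7 were followed through RNA sequencing of U2OS cells, a human osteosarcoma line. They were taken by name from the gene counts, as 7 of 58684 genes, and 6 of them had enough counts to be tested among 12460 genes. IDI1, with 74 counts over all 12 libraries, did not. The cells stably carried either eIF4E-Flag, a tagged copy of the protein that holds the m7G cap of mRNAs when translation starts, or the vector alone. Libraries were made from the total RNA of each kind of cell, called input, and from the RNA that a cap immunoprecipitation brought down, called Cap IP. This gave 4 groups of 3 libraries, namely vector input, eIF4E input, vector Cap IP and eIF4E Cap IP. All of them share the same parent line. The labels do not say which promoter drives eIF4E-Flag, whether a stable line is 1 clone, or whether the replicates are separate cultures. The p-values therefore measure only the spread between these samples.

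Cholesterol is built from acetyl-CoA by a long chain of enzymes. HMGCS1 makes HMG-CoA, an early intermediate of the mevalonate pathway. IDI1 and FDPS then turn the activated isoprene units into farnesyl diphosphate, which also feeds protein prenylation. FDFT1 joins farnesyl units into squalene and so commits them to sterols, SQLE oxidises squalene, LSS closes the rings to give lanosterol, and DHCR7 performs a last reduction to cholesterol. When membrane sterol is low, the factor SREBP-2 is released from the endoplasmic reticulum and raises transcription of most of these genes, typically together with NF-Y, which binds the CCAAT box.

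Because the regulation of these genes is shared at their promoters, the promoters are shown before the values. The 250 bases before the RefSeq start site (GRCh38.p14) were searched for CCAAT on both strands, which reads ATTGG when it lies on the other strand, and for the sterol element TCACNCCAC on both strands. All 5 enzymes with an entry in the RefSeq promoter table held at least 1 CCAAT box, against 32.0% of 35116 promoters. At least 2 boxes were found in HMGCS1, IDI1, FDPS and DHCR7, against 9.5% of promoters. TCACNCCAC was in none of the 5 windows and in 0.9% of all promoters, which says only that these letters are not in the windows. FDFT1 and SQLE had no entry. Below are FDPS, LSS and DHCR7, 3 of the genes that varied together between libraries of the same group, and HMGCS1, which followed them less within groups. They are written 5′ to 3′ on the strand of the gene, with the CCAAT boxes in capitals. The windows are chr1:155308616-155308865 on the plus strand, and chr21:46228775-46229024, chr11:71448394-71448643 and chr5:43313413-43313662 on the minus strand.
FDPS: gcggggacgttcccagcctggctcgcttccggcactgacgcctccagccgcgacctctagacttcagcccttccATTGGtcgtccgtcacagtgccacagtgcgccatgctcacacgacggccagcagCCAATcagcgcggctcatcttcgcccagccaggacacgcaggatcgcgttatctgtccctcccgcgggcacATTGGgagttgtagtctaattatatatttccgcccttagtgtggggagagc
LSS: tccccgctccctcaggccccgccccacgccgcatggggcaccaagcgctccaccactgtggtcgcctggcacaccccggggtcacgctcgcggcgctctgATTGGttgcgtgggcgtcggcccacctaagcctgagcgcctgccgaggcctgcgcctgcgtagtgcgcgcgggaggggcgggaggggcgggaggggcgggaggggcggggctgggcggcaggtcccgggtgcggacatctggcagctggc
DHCR7: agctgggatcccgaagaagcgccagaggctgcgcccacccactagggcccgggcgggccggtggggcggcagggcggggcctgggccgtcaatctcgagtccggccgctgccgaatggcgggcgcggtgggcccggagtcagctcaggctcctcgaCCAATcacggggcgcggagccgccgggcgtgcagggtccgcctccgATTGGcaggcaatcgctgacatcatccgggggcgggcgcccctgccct
HMGCS1: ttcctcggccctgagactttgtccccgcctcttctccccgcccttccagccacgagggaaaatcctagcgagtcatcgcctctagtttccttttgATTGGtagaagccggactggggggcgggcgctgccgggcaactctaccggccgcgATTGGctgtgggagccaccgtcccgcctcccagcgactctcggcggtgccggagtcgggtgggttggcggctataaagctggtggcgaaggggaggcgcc

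Counted from the start site, with -1 as the last base before it, the first base of a box lay at -176, -122 and -51 in FDPS, at -150 in LSS, at -94 and -48 in DHCR7 and at -155 and -100 in HMGCS1. IDI1 had boxes at -215 and -117. The windows of both genes with the most G and C, LSS (76.8%) and DHCR7 (75.2%), differed in the number of boxes, 1 against 2. A match of letters is a description of the window, not a site that was shown to be bound.

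Libraries held 1206321 to 1813486 counts, and these genes were read thinly. The 7 enzymes together took 218 to 855 counts in an input library and 118 to 399 in a Cap IP library. Levels are given in CPM, counts scaled to the library size after TMM normalization, and 3 counts stood for 1.19 to 3.15 CPM. TMM factors were 1.17 to 1.49 in input and 0.667 to 0.891 in Cap IP, so a comparison of Cap IP with input depends on the scaling. EIF4E itself had 9 to 15 counts in vector input and 23 to 39 in eIF4E input. Of the markers of a mesenchymal line, group means were 732 to 1017 CPM for VIM, 226 to 352 for SPARC, 119 to 928 for COL1A1 and 4.93 to 11.5 for RUNX2, and COL1A2 had 2 counts in all. Of the markers of other cells, ALB had 0 counts, PTPRC 2, EPCAM 49, CDH1 187 and PECAM1 247 over all libraries. VIM, SPARC and COL1A1 have exons opposite to another gene. VIM-AS1, opposite to VIM, averaged 17369 counts per library and VIM 1289.

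Which strand setting the counting used is not stated in the labels or notes, and this bears on the enzymes directly. RUSC1-AS1, a noncoding RNA on the opposite strand at 155316863 to 155324176 of chromosome 1, shares 693 exon bases with FDPS, or 18.6% of the FDPS exons. On average a library had 2741 RUSC1-AS1 counts and 93.9 FDPS counts, a ratio of 29.2. IDI2-AS1, on chromosome 10 at 1022618 to 1045425, shares 643 exon bases with IDI1 and averaged 110.8 counts, with 6.2 for IDI1, a ratio of 17.9. Opposite noncoding exons are also annotated over HMGCS1, FDFT1 and LSS, but those genes have no symbol and were not matched to counts. SQLE and DHCR7 have none. Reads of a gene and of its opposite partner cannot be told apart here without the strand setting, so the RNA behind the FDPS and IDI1 counts in particular is uncertain. The setting is unknown for all genes alike, so the counts of SQLE and DHCR7 are not exempt from this doubt.

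Among the enzymes, FDPS and FDFT1 were read most densely per length. In vector input, group means per kilobase of annotated exons were 11.9 CPM for FDPS, 10.5 for FDFT1, 7.40 for SQLE, 4.96 for LSS, 3.84 for DHCR7, 2.61 for HMGCS1 and 1.04 for IDI1. FDPS was also first and IDI1 last in eIF4E input (21.8 and 0.646), vector Cap IP (15.4 and 1.29) and eIF4E Cap IP (12.6 and 0.849). LSS stood above DHCR7 in vector input but below it in vector Cap IP, where DHCR7 had 3.38 and LSS 1.78 CPM per kilobase. The exons of all transcripts span 7238 bases for LSS and 6878 for DHCR7, the longest transcripts 4886 and 2850. The order of these enzymes in vector input depends on which length is used. The levels of each enzyme in each library are plotted without this division by length.

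**Figure D1:**
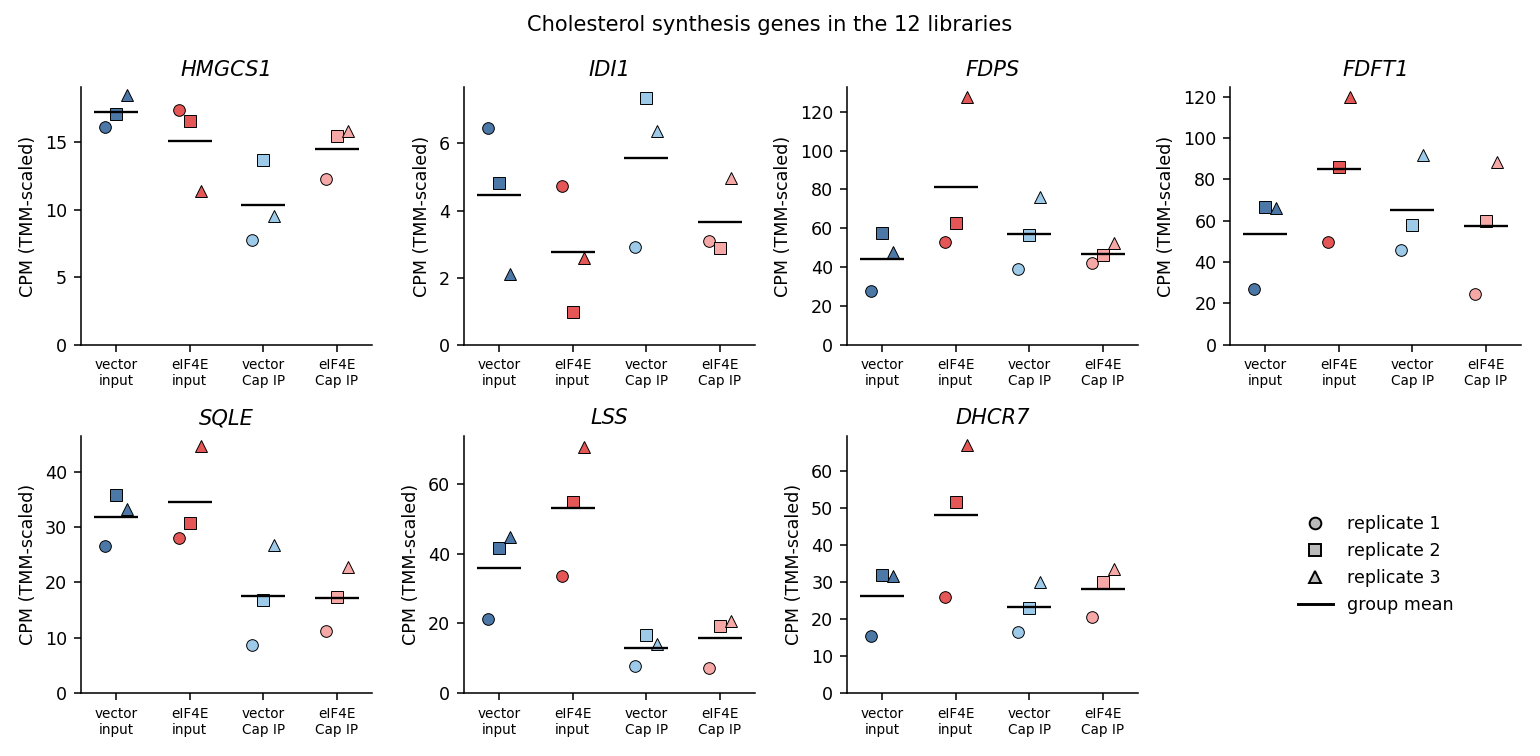
Levels of the 7 enzymes in CPM (TMM-scaled, on linear axes that start at 0 and differ between panels) in the 12 libraries. Points are libraries, shapes are replicate numbers and lines are group means; the LSS Cap IP points (7.18 to 20.8 CPM) all lie below the input points (21.3 to 70.6 CPM).

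HMGCS1 lies on the minus strand of chromosome 5 at 43287470 to 43313512. Its vector input libraries held 25, 32 and 44 counts, or 16.2, 17.1 and 18.6 CPM. In eIF4E input it had 44, 34 and 22 counts, or 17.4, 16.6 and 11.4 CPM. The vector Cap IP libraries had 7.78, 13.7 and 9.58 CPM and the eIF4E Cap IP libraries 12.3, 15.5 and 15.9. The 3 vector Cap IP libraries lay below the 3 vector input libraries, while the eIF4E groups overlapped. IDI1, on the minus strand of chromosome 10 at 1039152 to 1049119, had 2 to 12 counts in input and 3 to 10 in Cap IP. Its group means ran from 2.77 ± 1.89 CPM (SD, n = 3) in eIF4E input to 5.55 ± 2.33 (SD, n = 3) in vector Cap IP, and every neighbouring pair of groups in that order overlapped. These counts are too few to show a difference.

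FDPS, on the plus strand of chromosome 1 at 155308748 to 155320666, held 43, 108 and 113 counts in vector input, or 27.8, 57.7 and 47.6 CPM. In eIF4E input it held 134, 128 and 246 counts, or 53.0, 62.6 and 127.7 CPM. Vector Cap IP libraries had 38.9, 56.8 and 76.0 CPM and eIF4E Cap IP libraries 42.1, 46.4 and 52.6. The third eIF4E input library was by far the highest for FDPS, and the 3 eIF4E Cap IP libraries lay just below the 3 eIF4E input libraries. FDFT1, on the plus strand of chromosome 8 at 11795573 to 11839395, had 27.2, 66.8 and 66.2 CPM in vector input and 49.8, 86.0 and 119.9 in eIF4E input. Vector Cap IP libraries had 45.7, 57.8 and 91.9 CPM and eIF4E Cap IP libraries 24.6, 59.9 and 88.3. All 4 groups overlapped for FDFT1.

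SQLE, on the plus strand of chromosome 8 at 124998497 to 125022283, had 26.5, 35.8 and 33.3 CPM in vector input and 28.1, 30.8 and 44.7 in eIF4E input. After Cap IP, SQLE was at 8.75, 16.8 and 26.8 CPM with the vector and at 11.3, 17.4 and 22.8 with eIF4E-Flag. The highest vector Cap IP library just exceeded the lowest vector input library, whereas the eIF4E groups did not overlap. LSS, on the minus strand of chromosome 21 at 46188141 to 46228824, held 33, 78 and 106 counts in vector input and 85, 112 and 136 in eIF4E input. Far fewer were read in vector Cap IP, with 8, 16 and 22, and in eIF4E Cap IP, with 7, 20 and 21. The input levels of LSS were 21.3, 41.7 and 44.7 CPM in vector cells, and 33.6, 54.7 and 70.6 where eIF4E-Flag was present. Its Cap IP levels were 7.78, 16.8 and 14.1 CPM, and 7.18, 19.3 and 20.8, in the same order. Every input library exceeded every Cap IP library for LSS. DHCR7, on the minus strand of chromosome 11 at 71428193 to 71452868, had 15.5, 32.1 and 31.6 CPM in vector input and 26.1, 51.8 and 67.0 in eIF4E input. The Cap IP levels of DHCR7 were 16.5, 23.1 and 30.0 CPM with the vector and 20.5, 29.9 and 33.7 with eIF4E-Flag. When the 4 group means of each enzyme were put in order, the one pair of neighbours without overlap was LSS in vector input and eIF4E Cap IP.

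The first comparison asked whether total RNA of the enzymes differed between eIF4E and vector cells. None of the 6 tested enzymes passed in input, where 0.530% of all genes were called in edgeR's quasi-likelihood test at a Benjamini-Hochberg adjusted p under 0.05. No enzyme had groups without overlap, against 18.7% of all genes. FDPS was higher in eIF4E input by 0.86 ± 0.35 (SE) on the log2 scale, with a 95% interval of 0.13 to 1.59 (edgeR adjusted p = 0.283). DHCR7 was higher by 0.85 ± 0.37, with an interval of 0.09 to 1.61 (edgeR adjusted p = 0.310). For these 2 enzymes the unadjusted p was under 0.05. The log2 changes of FDFT1, 0.66 ± 0.42, and LSS, 0.55 ± 0.37, had adjusted p of 0.499 and 0.538 in edgeR. SQLE differed by 0.11 ± 0.35 and HMGCS1 by -0.19 ± 0.33. Their 95% intervals, -0.61 to 0.83 and -0.87 to 0.49, leave room for changes in either direction. The median log2 change of the 6 enzymes was 0.60, and that of all genes tested was -0.05.

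**Figure D2:**
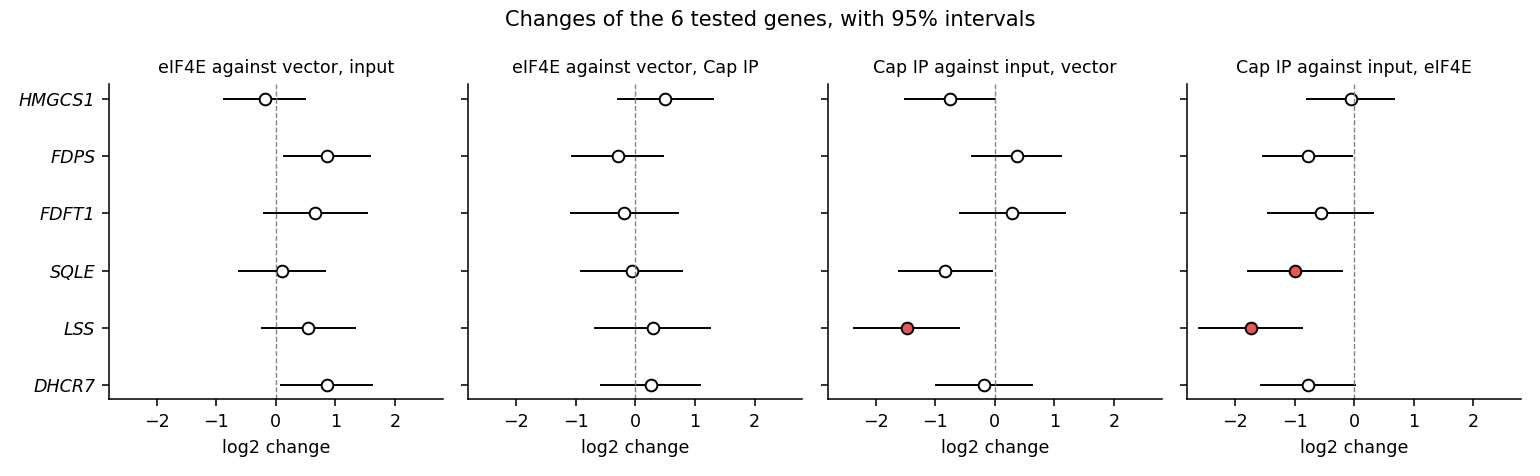
Log2 changes of the 6 tested enzymes from edgeR's fit, with 95% intervals as bars, in 4 comparisons. Red points passed at an adjusted p under 0.05 and open points did not; the red points are LSS in both comparisons of Cap IP with input (-1.48 and -1.73) and SQLE in eIF4E cells.

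Across all genes the input changes went with base composition, and the input levels of the enzymes varied between single libraries. Across 10128 tested genes with a matched transcript (81.3%), the log2 change between eIF4E and vector input had a Spearman rho of 0.30 with transcript GC content. In 4 equal classes of genes from low to high GC content, the median changes were -0.19, -0.09, 0.14 and 0.22. The longest transcripts of DHCR7, LSS and FDPS contain 58.1%, 58.1% and 56.0% G and C, those of FDFT1 and SQLE 47.0% and 46.5%, and that of HMGCS1 39.0%, against quartiles of 43.5%, 50.6% and 57.7% over the tested genes. With a GC correction, the log2 changes of FDPS, DHCR7 and LSS were 0.643, 0.622 and 0.325, and those of FDFT1 and SQLE 0.779 and 0.222. The third eIF4E input library stood out in this respect: its deviations from the group mean had a rho of 0.528 with GC content, against -0.456 and -0.209 in the other two eIF4E input libraries. It held the highest input level of FDPS, FDFT1, SQLE, LSS and DHCR7 and the lowest of HMGCS1. The first vector input library held the lowest input level of the same 5 enzymes. How far base composition contributed to these values was not tested.

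**Figure D3:**
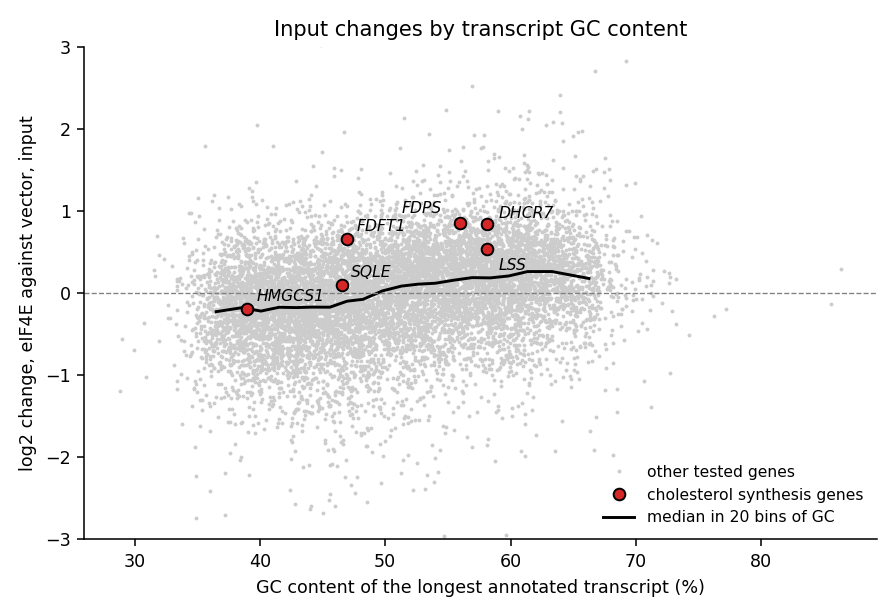
Log2 change between eIF4E and vector input (y axis) against the GC content of the longest annotated transcript in percent (x axis) for 10128 genes; 13 genes outside the axes are not drawn. The line is the median in 20 bins of GC content, which passes from below 0 to above 0, and the red points are the 6 tested enzymes, of which HMGCS1 lies on the line and the others above it.

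The second comparison asked how the level of each enzyme in Cap IP differed from its level in input, relative to the other genes. The amount of RNA recovered by the Cap IP was not measured. In vector cells LSS was the one enzyme called, with a fall of 1.48 ± 0.42 on the log2 scale and an interval of -2.36 to -0.60 (edgeR adjusted p = 0.00906). The unadjusted p was under 0.05 for LSS, SQLE and HMGCS1, 3 of 6, and for 5988 of the 12460 genes. Across all genes 21.0% were lower and 18.5% higher in Cap IP in this comparison, so 1 of 6 is near the background. SQLE (-0.83 ± 0.37) and HMGCS1 (-0.75 ± 0.36) did not pass over all genes, with adjusted p of 0.0826 and 0.102 in edgeR. FDPS, FDFT1 and DHCR7 had log2 changes of 0.37, 0.29 and -0.18 (edgeR adjusted p = 0.430, 0.616 and 0.746). Groups did not overlap for LSS and HMGCS1, 2 of 6, against 49.9% of all genes. With the shared title stem of an input and a Cap IP library as a block, SQLE passed as well, at -0.88 (edgeR adjusted p = 0.0164), which made 2 enzymes called.

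In eIF4E cells LSS fell by 1.73 ± 0.42 on the log2 scale, with an interval of -2.60 to -0.87 (edgeR adjusted p = 0.00230). SQLE fell by 1.00 ± 0.38, with an interval of -1.79 to -0.21 (edgeR adjusted p = 0.0374). All genes called lower made up 23.3%, and those called higher 21.9%. FDPS (-0.78 ± 0.36), DHCR7 (-0.77 ± 0.38) and FDFT1 (-0.56 ± 0.42) did not pass (edgeR adjusted p = 0.0808, 0.102 and 0.292). FDPS passed when the fit held the eIF4E groups alone, at -0.85 (edgeR adjusted p = 0.0387). It also passed without a filter on low counts, at -0.94 (edgeR adjusted p = 0.0320). With the title stem as a block all 3 passed. The stem paired the libraries of these cells unevenly, with correlations of 0.354, 0.080 and 0.111 between input and Cap IP. HMGCS1 had a log2 change of -0.06 ± 0.35 (edgeR adjusted p = 0.900). Libraries did not overlap for LSS, SQLE and FDPS, 3 of 6, against 54.8% of all genes. The median over the enzymes was -0.78 in eIF4E cells and -0.47 in vector cells, and over all genes -0.13 and -0.05.

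LSS passed in both kinds of cells with any 1 library of the groups compared left out, but not under every processing. The call of SQLE in eIF4E cells was lost without eIF4E input replicate 2 or 3 (edgeR adjusted p = 0.0552 and 0.131) or without eIF4E Cap IP replicate 1 or 2 (0.153 and 0.0882). With library sizes from the 13 mitochondrial mRNAs no enzyme passed, and the log2 change of LSS was -0.315 in vector cells and -1.38 in eIF4E cells (edgeR adjusted p = 0.786 and 0.205). That scaling moved the median of all genes to 0.97 in vector cells and 0.03 in eIF4E cells. Cap IP against input also went with GC content, with a rho of -0.183 in vector cells and -0.343 in eIF4E cells, and with transcript length, with a rho of -0.328 and -0.254. The LSS transcript has 4886 bases, those of SQLE, DHCR7, FDFT1 and FDPS 2962, 2850, 2462 and 2017, and that of HMGCS1 5350. With both GC content and length corrected, LSS was at -0.933 and -0.865 and did not pass (edgeR adjusted p = 0.0755 and 0.0877).

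One measure does not depend on how libraries are scaled, namely the share of each enzyme in the summed counts of the 7. LSS made up 15.1% to 18.3% of these counts in the 6 input libraries and 5.51% to 10.1% in the 6 Cap IP libraries, with no overlap. With the vector, its mean share was 16.6% ± 1.61 (SD, n = 3) before and 6.77% ± 1.73 after the Cap IP. In eIF4E cells the LSS share was 16.6% ± 1.26 in input and 8.25% ± 2.12 in Cap IP. The share of SQLE was 10.1% to 18.8% in input and 6.82% to 10.5% in Cap IP, which overlap at the edge. FDPS made up 19.5% to 28.8% in input and 22.0% to 34.8% in Cap IP. FDFT1 made up 19.3% to 28.3% and 20.3% to 36.9%, and DHCR7 11.0% to 17.1% and 11.8% to 17.0%. Within the pathway, LSS thus was the one enzyme with a share that separated all input from all Cap IP libraries. A share also depends on the other 6 enzymes, and on what the FDPS counts hold.

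**Figure D4:**
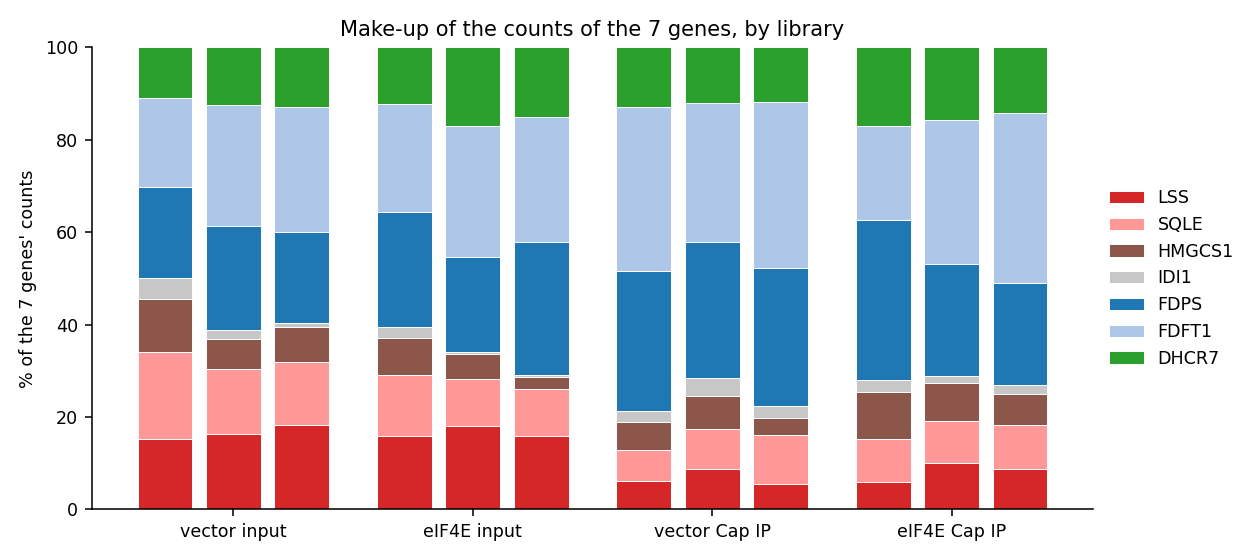
Share of each enzyme in the summed counts of the 7 enzymes, in percent, with 1 bar for each of the 12 libraries, in replicate order within each group. The lowest block is LSS, at 15.1% to 18.3% in input and 5.51% to 10.1% in Cap IP.

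The series title asks whether eIF4E changes capping. The nearest quantity here is the difference between the Cap IP changes of eIF4E and vector cells, relative to the other genes. TMM scales each library to the bulk of its genes, so a change in capping shared by most transcripts could not be seen in it. In edgeR's main fit, which had no block, no enzyme and no gene at all passed (0% of all genes), and DESeq2 called 0 genes as well. With the title stem as a block 51 genes passed in edgeR, and without a filter on low counts 3 did, with no enzyme among them. In the main fit 728 of the 12460 genes and 1 of the 6 enzymes had an unadjusted p under 0.05. The enzyme was FDPS, with a difference of -1.15 ± 0.51 on the log2 scale and an interval of -2.21 to -0.10 (edgeR adjusted p = 0.833). FDFT1 and DHCR7 differed by -0.85 ± 0.60 and -0.60 ± 0.54, LSS by -0.25 ± 0.60, SQLE by -0.17 ± 0.53, and HMGCS1 by 0.69 ± 0.50. The interval of LSS, -1.50 to 0.99, and that of SQLE, -1.28 to 0.94, allow sizeable changes both ways. The passing of SQLE in eIF4E cells alone is therefore not a shown difference between the cells. The medians of this difference were -0.42 over the enzymes and 0.02 over all genes. With library sizes from mitochondrial mRNAs the median over all genes was -0.87, and no gene passed. Whether capping changed across most transcripts was therefore not tested. In the main fit the difference had a rho of -0.336 with GC content across genes.

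Within the Cap IP fraction itself, no enzyme passed between eIF4E and vector cells, where 0.225% of all genes were called, and none had an unadjusted p under 0.05. HMGCS1 had a log2 change of 0.50 ± 0.38, with an interval of -0.29 to 1.30 (edgeR adjusted p = 0.758). The others lay between -0.29 for FDPS and 0.29 for LSS (edgeR adjusted p = 0.858 to 0.982). Groups overlapped for all 6, whereas 13.6% of all genes had groups without overlap. The median of the enzymes was 0.10 and that of all genes -0.01.

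Across libraries of the same group the later enzymes varied together. Deviations of log2 CPM from the group means, over the 12 libraries, had a Pearson r of 0.74 to 0.92 for every pair among FDPS, FDFT1, SQLE, LSS and DHCR7. Pairs with HMGCS1 had an r of -0.14 to 0.36. For the levels themselves, with group means kept, r was 0.535 to 0.907 among the 5 and -0.184 to 0.573 with HMGCS1. These ranges overlap. Replicate 1, whose libraries share a tag in their titles, had the lowest level of each of the 5 in every group, as the plot of levels by library shows. The values of a library share its depth and any lean of that library towards high or low GC content. The transcripts of the 5 themselves ranged from 46.5% to 58.1% GC. No r over other pairs of genes is given for comparison. The genes outside the set whose log2 CPM over the 12 libraries most resembled the mean z score of the tested enzymes were EXOC3 (r = 0.956), CSNK1E (0.951), LAMB3 (0.949), CLASRP (0.946) and TNIP1 (0.939).

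The opposite rows rose in Cap IP. RUSC1-AS1 held 913, 1794 and 2550 counts in vector input and 1657, 2023 and 3448 in eIF4E input. Its Cap IP counts were 1739, 3343 and 4532 with the vector and 2735, 4252 and 3910 with eIF4E-Flag. It rose in Cap IP by 1.63 ± 0.38 on the log2 scale in vector cells and by 1.65 ± 0.38 in eIF4E cells (edgeR adjusted p = 0.00222 and 0.00162), whereas FDPS did not pass in either. The ratio of RUSC1-AS1 to FDPS counts was 16.6 to 22.6 in vector input, 12.4 to 15.8 in eIF4E input, 38.1 to 61.9 in vector Cap IP and 66.7 to 88.6 in eIF4E Cap IP. None of these ranges overlapped. IDI2-AS1 had 41, 48 and 89 counts in vector input, 43, 43 and 52 in eIF4E input, 121, 144 and 152 in vector Cap IP and 140, 229 and 227 in eIF4E Cap IP. It rose in Cap IP by 2.02 ± 0.30 in vector cells and 3.18 ± 0.31 in eIF4E cells (edgeR adjusted p = 5.01e-05 and 8.37e-07). Its ratio to IDI1 was 4.1 to 17.8 in vector input and 15.2 to 40.3 in vector Cap IP, which overlap, and 3.58 to 21.5 and 45.4 to 76.3 in eIF4E cells, which do not. With 2 to 12 counts of IDI1 per library these ratios are imprecise, and IDI1 itself was not tested.

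**Figure D5:**
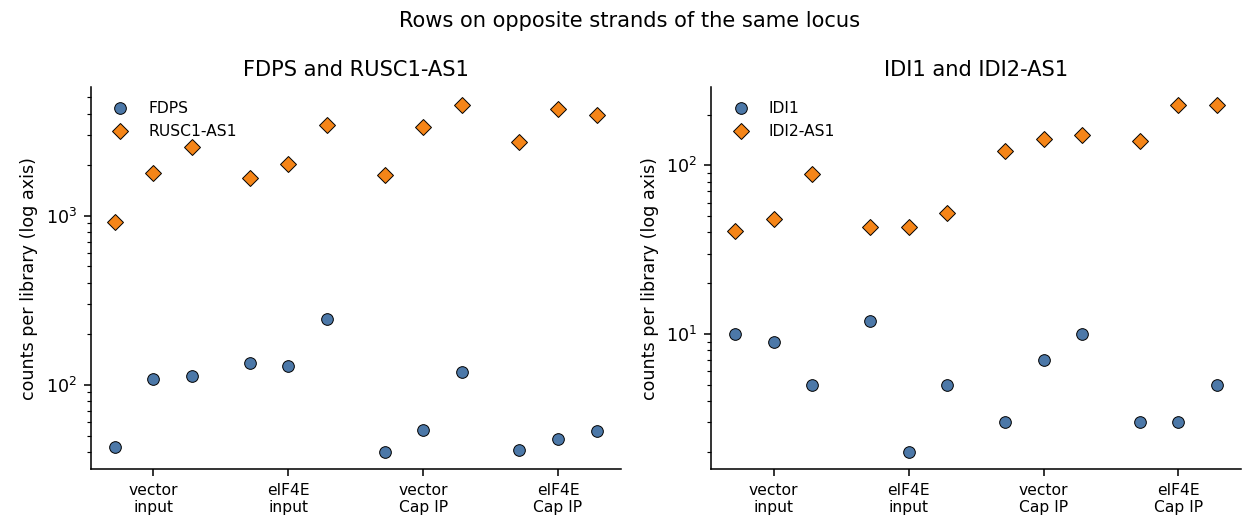
Counts per library (log axes) of FDPS with RUSC1-AS1 and of IDI1 with IDI2-AS1, for the 12 libraries in replicate order within each group. Circles are the enzymes and diamonds the opposite rows; the diamonds lie above the circles in all libraries.

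The remaining enzymes of the pathway were read in the same way. Of 14 further cholesterol synthesis genes 11 were tested, and none passed between eIF4E and vector cells in input or Cap IP. Among them the smallest p in input was that of NSDHL, a sterol dehydrogenase, with a log2 change of 1.02 ± 0.46 (edgeR adjusted p = 0.333). The median of these 11 in input was 0.66, with 7 positive values, beside the 0.60 of the 6 enzymes. In Cap IP against input of vector cells 1 rose and 2 fell, where 18.5% of all genes were called higher and 21.0% lower. The gene that rose was ACAT2, which makes acetoacetyl-CoA, by 1.59 ± 0.50 (edgeR adjusted p = 0.0165). In eIF4E cells 1 rose and 2 fell as well, beside 21.9% and 23.3% of all genes, so neither count stands out from the background. There ACAT2 rose by 2.74 ± 0.52 and MVD, a mevalonate pathway decarboxylase, fell by 1.06 ± 0.42 (edgeR adjusted p = 0.000324 and 0.0464). The ACAT2 libraries of these cells had 808.6, 298.4 and 144.8 CPM in Cap IP and 73.1, 78.7 and 35.3 in input. The groups of MVD overlapped, as did those of ACAT2 in vector cells. ACAT2 shares 454 exon bases with TCP1 on the opposite strand, which averaged 555.6 counts per library, with 257.6 for ACAT2.

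Several genes that control or accompany the pathway fell in Cap IP. Of the 8 tested genes of the SREBP system 4 fell in vector cells and 5 in eIF4E cells, and none rose. SCAP, the sterol-sensing escort of SREBP, had log2 changes of -2.06 ± 0.32 in vector cells and -2.54 ± 0.33 in eIF4E cells (edgeR adjusted p = 6.48e-05 and 1.04e-05). SREBF2, which encodes SREBP-2, was at -1.42 ± 0.34 and -1.96 ± 0.35, and MBTPS1, the protease that cleaves it, at -1.40 ± 0.34 and -2.11 ± 0.36. These changes of SREBF2 and MBTPS1 were all called in edgeR. SREBF1, which encodes SREBP-1, fell in eIF4E cells, by 0.71 ± 0.28 (edgeR adjusted p = 0.0460). Of 9 tested genes of fatty acid synthesis 6 fell in each kind of cell. FASN, the fatty acid synthase, had changes of -3.17 ± 0.33 in vector cells and -3.64 ± 0.33 in eIF4E cells. ACACA, the carboxylase that supplies it, was at -2.76 ± 0.44 and -2.53 ± 0.47, and the desaturase SCD at -1.30 ± 0.30 and -1.91 ± 0.31. ACLY, which makes cytosolic acetyl-CoA, was at -1.83 ± 0.33 and -2.28 ± 0.33. ELOVL6, a fatty acid elongase, rose in eIF4E cells by 1.30 ± 0.43 (edgeR adjusted p = 0.0171). The counts are to be read against the backgrounds of 21.0% and 23.3% lower, and no test of these lists as a whole was made. Transcripts of FASN and ACACA, with 8464 and 10013 bases, are long, and the association with length given above applies to them.

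Sterol uptake and efflux showed both directions. Of 6 tested uptake genes, TMEM97, a sterol-regulated membrane protein opposite to IFT20, rose by 1.77 ± 0.32 in vector cells and 2.20 ± 0.32 in eIF4E cells (edgeR adjusted p = 0.000253 and 2.79e-05). In eIF4E cells SCARB1, an HDL receptor, fell by 1.94 ± 0.49 (edgeR adjusted p = 0.00324). Of 4 tested efflux and storage genes, NR1H3 (LXR alpha), opposite to ACP2, rose in both, by 1.70 ± 0.33 and 1.43 ± 0.33, and NR1H2 (LXR beta), opposite to NAPSA, fell by 1.30 ± 0.33 in eIF4E cells. Of 6 tested genes of the isoprenoid branches, which use farnesyl diphosphate from FDPS, FNTA, a farnesyltransferase subunit, rose by 1.86 ± 0.45 and 2.00 ± 0.45. RCE1 and ICMT, which finish prenylated proteins, fell, with changes of -2.45 ± 0.71 and -2.05 ± 0.39 with the vector and -2.15 ± 0.68 and -2.53 ± 0.43 with eIF4E-Flag. No gene of these lists passed between eIF4E and vector cells in either fraction. FASN had a log2 change of 0.71 ± 0.29 in input, with an adjusted p of 0.294 in edgeR.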

How the data were processed

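The aligner was STAR 2.5.1b, the counter featureCounts 1.4.5-p1 and the build GRCh38.p5, per the submitters' processing notes. The deposited values are raw counts per gene name made by the authors from single-end reads of a ribosome-depleted KAPA library kit, per the labels. The annotation and the strand setting are not given in these sources. They were fitted in R 4.3.3 by edgeR 4.0.16 (filterByExpr, TMM, quasi-likelihood test with a mean for each of 4 groups over all 12 libraries) and limma 3.58.1. P-values were adjusted by Benjamini-Hochberg over 12460 genes and called under 0.05 in 5 comparisons, of which several share libraries. The chi-square per degree of freedom between replicates was 5.10 to 18.0, so none was a copy. DESeq2 1.42.0 was an alternative. Counts limit the precision, since 3 counts stood for up to 3.15 CPM. A prior count of 2 entered log2 CPM for deviations and likeness. Groups were called apart where no library of one reached the other.

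Positions, transcript lengths, GC content and opposite exons came from GENCODE release 44 on GRCh38, with 33465 gene names matched by symbol, 1624 by an older symbol and 23595 not matched. Promoters came from RefSeq. The procedure was run on counts simulated from the model it assumes, which does not test how well that model fits these data. Python 3.11.15, pandas 2.3.3, NumPy 2.4.6 and matplotlib 3.10.9 were used.

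The members and lists were chosen with earlier results of these data known. All members are described. Of each further list, those called in a comparison could be named (at most 4, smallest p first), otherwise that with the smallest p. The opposite rows were named by annotation, and SREBF1 and ELOVL6 beyond these rules, after their values were seen. Some genes of these lists are not reported here by name but are included in the counts. GC and length corrections and the fit of matched genes alone were also chosen after seeing the data.

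Each input library has a Cap IP library with the same title stem, and each vector library an eIF4E library with the same title tag. Correlations of their deviations from the group means were 0.429, 0.271 and 0.440 for the stem in vector cells and 0.203, 0.156 and 0.305 for the tag in Cap IP. They were 0.354, 0.080 and 0.111 for the stem in eIF4E cells and 0.182, 0.013 and -0.036 for the tag in input, which is weaker or uneven. Single values of these sets overlap, so they do not settle where the block applies.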

Additional observations from a re-analysis of the deposited data

How the results depend on the processing

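Few counts limit these results, and calls over all genes varied more than those of the enzymes. In input 66 genes were called, but 11 with total counts as library sizes, 7 with mitochondrial mRNAs, 318 without a filter, 32 with at least 50 counts in 3 libraries, 18 with the groups compared alone, 40 with GC correction and replicate block, 138 with DESeq2, and 7 to 109 with 1 library left out. No enzyme was called in input, in Cap IP or for the difference under any setting run.

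In Cap IP of eIF4E against vector 28 genes were called. The counts were 18 with mitochondrial mRNAs, 204 without a filter, 18 with at least 50 counts, 6 with the groups compared alone, 390 with the tag as a replicate block, 16 with matched genes, 16 with GC correction, 13 with GC and length correction, 348 with GC correction and block, 63 with DESeq2 and 0 to 30 with 1 library left out. For the difference 3 genes passed without a filter and 51 with the stem as a block. For Cap IP against input, 4921 genes were called in vector cells, 2949 with at least 50 counts and 2706 with GC and length correction. In eIF4E cells these were 5625, 3432 and 2879, and 1553 with mitochondrial mRNAs and 3524 with GC correction.

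Of the enzymes 1 was called in vector cells, but 3 with total counts, 0 with mitochondrial mRNAs, 2 with at least 50 counts, 2 with the stem as a block, 2 with GC correction, 0 with GC and length correction, 4 with GC correction and block, and 1 to 2 with 1 library left out. In eIF4E cells 2 were called, but 6 with total counts, 0 with mitochondrial mRNAs, 5 with the stem as a block, 1 with GC correction, 0 with GC and length correction, and 1 to 4 with 1 library left out. The 3 that the block added were FDPS (-0.697), FDFT1 (-0.628) and DHCR7 (-0.734), with edgeR adjusted p of 0.0213, 0.0335 and 0.0247. Total counts moved the median of all genes to -0.76 and -0.97 in the vector and eIF4E comparisons. They called 774 genes higher and 4949 lower with the vector and 1120 and 5805 with eIF4E-Flag, where TMM gave 2308 and 2613, and 2726 and 2899. With mitochondrial mRNAs these were 2904 and 552, and 846 and 707.

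No change that turned sign was called. In Cap IP against input of vector cells, total counts gave -0.34 for FDPS and -0.413 for FDFT1, and mitochondrial mRNAs gave 0.439 for HMGCS1, 0.144 for SQLE and 0.854 for DHCR7. DHCR7 was at 0.156 with GC correction and 0.168 with the block added. In eIF4E cells HMGCS1 was at 0.131 with mitochondrial mRNAs. In input HMGCS1 was at 0.112 with mitochondrial mRNAs and 0.00037 with GC correction and block. For the difference, HMGCS1 was at -0.307 with mitochondrial mRNAs and LSS at 0.0519, 0.0671 and 0.0276 with GC, GC and length, and GC with block. In Cap IP of eIF4E against vector, mitochondrial mRNAs gave -0.195 for HMGCS1, -0.337 for LSS and -0.295 for DHCR7, and SQLE was at 0.00178 with the tag as a block and 0.0251 with GC correction added.

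With 1 library left out, ranges that included 0 were as follows. In Cap IP against input they were -0.0571 to 0.51 for FDFT1 and -0.435 to 0.0284 for DHCR7 in vector cells, and -0.223 to 0.043 for HMGCS1 in eIF4E cells. In input SQLE ranged from -0.112 to 0.25. For the difference SQLE ranged from -0.495 to 0.325 and LSS from -0.535 to 0.0753. In Cap IP of eIF4E against vector FDPS ranged from -0.489 to 0.00948, FDFT1 from -0.626 to 0.201 and SQLE from -0.352 to 0.467. The cause of these shifts was not tested. The block changed no other call of an enzyme than those given.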
